A study of Mus musculus with 6 samples.

Results

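Cortical inhibitory interneurons are sorted into subclasses by a small set of genes, and 10 of these markers were followed here: Pvalb, Sst, Lhx6, Npy, Vip, Cck, Lamp5, Reln, Calb2 and Adarb2. Each was found by its gene symbol on 1 row of a table of 22584 genes, of which 16325, the 10 markers included, were abundant enough to be tested. RNA came from brain tissue of wild-type mice (genotype WT) extracted with the AllPrep DNA/RNA/Protein Mini Kit, a column kit that yields several kinds of molecule from one lysate (3 libraries), or with TRIzol, an acid phenol reagent whose aqueous phase is precipitated with isopropanol (3 control libraries). The comparison asks whether the choice of extraction changes the RNA profile. The labels give no age, sex or brain region. They also do not say which libraries share an animal, so each p-value refers to the spread between libraries of a method, part of which may be technical.

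Most cortical interneurons arise from 1 of 2 embryonic zones. Cells from the medial ganglionic eminence (MGE) depend on the transcription factor Lhx6 and become fast-spiking basket and chandelier cells with parvalbumin (Pvalb) or dendrite-targeting cells with somatostatin (Sst). Cells from the caudal ganglionic eminence (CGE) often express Adarb2 and include cells with vasoactive intestinal peptide (Vip), calretinin (Calb2) or cholecystokinin (Cck), and neurogliaform cells with Lamp5 and Reln. Several of these genes are also active outside interneurons: Cck and Lamp5 in excitatory cortical neurons, Pvalb in cerebellar Purkinje cells and parts of the thalamus and pallidum, and Npy and Sst in the hypothalamus.

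The libraries held 38552252 to 50937858 counts with AllPrep and 36395330 to 44995120 counts with TRIzol. Levels are TMM-scaled CPM (counts divided by the scaled library size), and fold changes are AllPrep over TRIzol from edgeR's quasi-likelihood test, with p-values adjusted over all tested genes (Benjamini-Hochberg, threshold 0.05, two-sided). Transcripts of neurons (Slc17a7, 838 ± 239 CPM in AllPrep and 863 ± 164 CPM in TRIzol, SD, n = 3 each) and of astrocytes (Slc1a2, a glutamate transporter, at 3086 ± 224 CPM in AllPrep and 2362 ± 207 CPM in TRIzol) were abundant, as brain tissue has them. Libraries stood apart in markers of single brain regions. The summed level of 6 brainstem genes was 3.001 to 6.50 CPM in AllPrep and 1.70 to 4.16 CPM in TRIzol replicates 1 and 3, but 62.3 CPM in TRIzol replicate 2, where Tph2, the enzyme of serotonin synthesis in the raphe, had 49.5 CPM. The summed level of 9 thalamic genes was 160 to 365 CPM in AllPrep and 151 to 233 CPM in TRIzol replicates 1 and 2, but 901 CPM in TRIzol replicate 3, where Prkcd, a kinase gene of thalamic relay neurons, had 317 CPM.

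Of the 10 markers, 1 changed: Cck fell. The other 9 did not pass, and the background was 3.8% of all tested genes past the threshold, 2.52% higher and 1.28% lower in AllPrep. Values were positive for 6 markers and negative for 4, with a median log2 fold change of 0.08, against -0.01 over all tested genes. In bulk tissue, fewer cells of a type and less RNA per cell cannot be told apart. The groups of libraries did not overlap for 4 markers, 2 higher (Sst, Reln) and 2 lower (Pvalb, Cck) in AllPrep, and 33.1% of all tested genes had groups without overlap, 16% higher and 17.1% lower in AllPrep. An unadjusted p below 0.05 was found for 5 markers and for 25.8% of all tested genes. DESeq2's Wald test called 4 markers (Pvalb and Cck lower, Sst and Lhx6 higher in AllPrep), where it called 12.2% of the genes to which it gave an adjusted p.

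**Figure D1:**
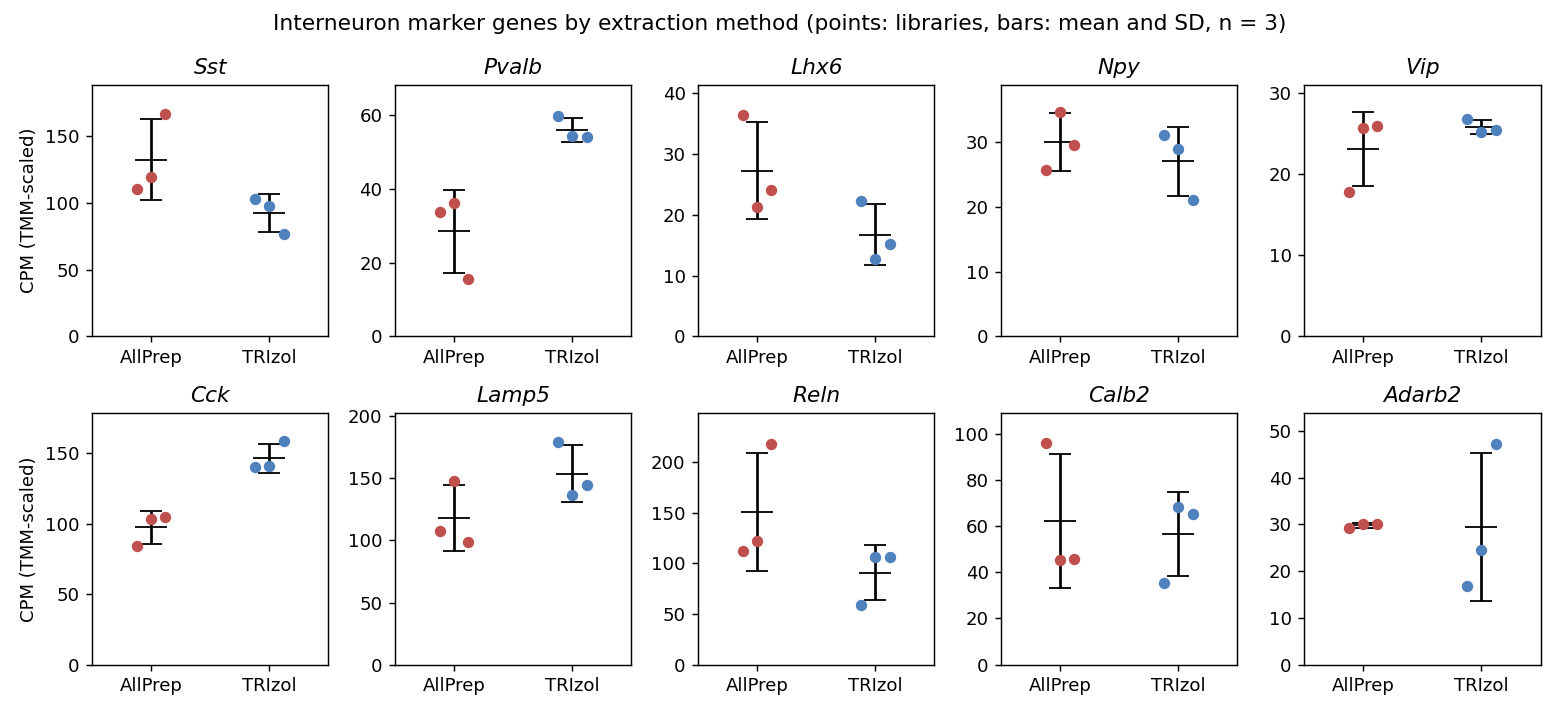
CPM of each marker (vertical axis, starting at 0) in the 3 AllPrep and 3 TRIzol libraries; points are libraries, bars the mean and SD. Pvalb and Cck lie lower in every AllPrep library than in any TRIzol library, Sst and Reln higher, and the other 6 markers overlap.

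The MGE markers did not share a direction. Pvalb encodes a calcium-binding protein of fast-spiking cells. It had 33.8, 36.2 and 15.6 CPM in AllPrep replicates 1 to 3, against 59.8, 54.4 and 54.0 CPM in TRIzol replicates 1 to 3. All AllPrep libraries were lower, and AllPrep replicate 3 was the lowest of the 6. The log2 fold change was -0.98 (SE 0.28, adjusted p = 0.084 in edgeR), about 0.51 of the TRIzol level, and 3.91% of all tested genes had a larger change in either direction. Without AllPrep replicate 3 it was -0.68 (adjusted p = 0.054 in edgeR), and over the 6 fits that left out 1 library each it ranged from -1.18 to -0.68.

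Sst encodes somatostatin, an inhibitory peptide. Its level was 110, 120 and 167 CPM in AllPrep, against 103, 98.1 and 76.5 CPM in TRIzol. Every AllPrep library was above every TRIzol library, but the lowest AllPrep and highest TRIzol values were close. Sst had a log2 fold change of 0.52 (SE 0.18, adjusted p = 0.12 in edgeR), and 0.31 without AllPrep replicate 3. Lhx6, the transcription factor that specifies MGE interneurons and stays on in the adult, had 36.4, 21.3 and 24.1 CPM in AllPrep, against 22.3, 12.7 and 15.2 CPM in TRIzol. The groups overlapped, with AllPrep replicate 1 the highest. Its log2 fold change was 0.71 (SE 0.26, adjusted p = 0.14 in edgeR), and 0.45 without AllPrep replicate 1.

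The contrast between Pvalb and the other MGE markers can be read within each library, where sequencing depth cancels. Sst had 3.27, 3.31 and 10.7 counts per Pvalb count in AllPrep, against 1.73, 1.80 and 1.42 in TRIzol. Lhx6 had 1.077, 0.588 and 1.54 counts per Pvalb count in AllPrep, against 0.374, 0.233 and 0.281 in TRIzol. Both ratios were higher in every AllPrep library than in any TRIzol library, and AllPrep replicate 3 had the highest of each. These ratios were formed after the fold changes were known and were not tested.

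**Figure D2:**
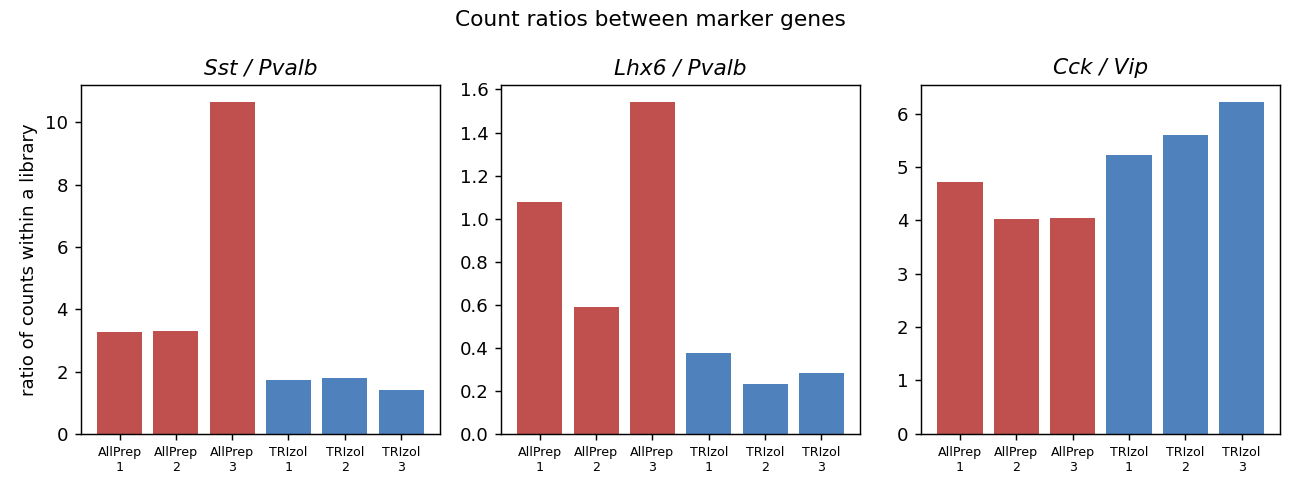
Ratios of counts between pairs of markers (vertical axis, no unit, starting at 0) in each library. Sst over Pvalb runs from 3.27 to 10.7 in AllPrep and from 1.42 to 1.80 in TRIzol, Lhx6 over Pvalb is higher in every AllPrep library, and Cck over Vip is lower in every AllPrep library.

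The 3 further neuropeptide genes were Npy, Vip and Cck. Npy encodes neuropeptide Y, present in many Sst cells and in neurogliaform cells. Npy had 25.7, 34.6 and 29.6 CPM in AllPrep, against 31.1, 28.9 and 21.0 CPM in TRIzol, and the groups overlapped. Its log2 fold change was 0.15 (SE 0.17, adjusted p = 0.61 in edgeR), with a 95% interval of -0.23 to 0.56 in limma-voom, so a change of the size seen for Sst lies within the interval. Sst had 4.29, 3.47 and 5.64 counts per Npy count in AllPrep, against 3.32, 3.39 and 3.65 in TRIzol, overlapping ranges.

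Vip marks interneurons that mostly inhibit other interneurons. Vip had 17.8, 25.6 and 25.9 CPM in AllPrep, against 26.8, 25.2 and 25.4 CPM in TRIzol. The TRIzol values were tight, and AllPrep replicate 1 alone lay well below them. For Vip the log2 fold change was -0.16 (SE 0.15, adjusted p = 0.53 in edgeR), with a 95% interval of -0.52 to 0.16 in limma-voom, and it was -0.0016 without AllPrep replicate 1.

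Cck, cholecystokinin, was the marker that passed. It had 84.2, 103 and 105 CPM in AllPrep, against 140, 141 and 158 CPM in TRIzol. All AllPrep libraries were lower and the groups were well apart. The log2 fold change was -0.59 (SE 0.10, adjusted p = 0.034 in edgeR), or 0.66 of the TRIzol level, and Cck stood at place 270 of all tested genes by p. The direction was the same in all 14 alternatives. However, the call was lost in each of the 6 fits that left out 1 library (adjusted p = 0.061 to 0.094 in edgeR). In those fits the log2 fold change was -0.65 to -0.49. Of all genes, 2 to 205 passed in them, against 621 with all 6 libraries. Cck had 4.72, 4.03 and 4.05 counts per Vip count in AllPrep, against 5.22, 5.598 and 6.23 in TRIzol. Neurod6, a transcription factor of excitatory cortical neurons, in which Cck is also expressed, had 27.6 ± 4.52 CPM in AllPrep and 45.0 ± 10.1 CPM in TRIzol (log2 fold change -0.71, adjusted p = 0.070 in edgeR), a gene named after its values were seen. The list of 12 cortical projection neuron genes summed to 1291 to 1716 CPM in AllPrep and 1364 to 1798 CPM in TRIzol, with a median log2 fold change of -0.09. In it 1 gene, Rasgrf2, an exchange factor of upper-layer neurons, rose (log2 fold change 0.67, adjusted p = 0.048 in edgeR), against 2.52% of all tested genes. The part of excitatory neurons in the fall of Cck was not tested.

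Start regions of 9 of the 10 genes were found in RefSeq (build GRCm38.p6, 250 bases before to 50 after the start). The sequences of Sst, Vip and Cck are shown because, of the members' windows, only theirs hold the letters TGACG, the half-site of the cAMP response element, whose full form TGACGTCA is known from studies of the rat Sst promoter. Both strands were searched, and matches are in capitals.
Sst (chr16:23890795-23891094, minus strand): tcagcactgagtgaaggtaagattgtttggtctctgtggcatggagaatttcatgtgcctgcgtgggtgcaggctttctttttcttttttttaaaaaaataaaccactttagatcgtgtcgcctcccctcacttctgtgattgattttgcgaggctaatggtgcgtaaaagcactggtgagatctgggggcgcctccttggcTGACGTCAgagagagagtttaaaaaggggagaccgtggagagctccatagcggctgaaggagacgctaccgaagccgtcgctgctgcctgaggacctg
Vip (chr10:5638968-5639267, plus strand): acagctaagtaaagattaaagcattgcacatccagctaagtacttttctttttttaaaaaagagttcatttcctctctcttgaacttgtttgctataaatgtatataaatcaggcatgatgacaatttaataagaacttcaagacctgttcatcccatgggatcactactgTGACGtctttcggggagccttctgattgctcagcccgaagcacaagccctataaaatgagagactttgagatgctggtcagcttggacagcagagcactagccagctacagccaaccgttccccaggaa
Cck (chr9:121495645-121495944, minus strand): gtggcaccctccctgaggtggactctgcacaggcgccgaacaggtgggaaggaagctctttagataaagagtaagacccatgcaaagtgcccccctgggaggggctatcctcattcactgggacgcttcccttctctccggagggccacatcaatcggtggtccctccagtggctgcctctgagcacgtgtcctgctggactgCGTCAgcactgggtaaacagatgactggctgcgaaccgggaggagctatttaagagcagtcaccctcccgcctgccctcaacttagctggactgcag
The full palindrome stands in the Sst window, where both half-sites overlap in 1 site, and in 1.79% of all 32851 windows. The half-site was found in 3 of the 13 windows of the markers and in 20.8% of all windows. The log2 fold changes of the 3 genes were 0.52, -0.16 and -0.59 in the order shown, and of these only Cck passed.

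Among the remaining markers, Lamp5, a membrane protein of neurogliaform cells, had 107, 148 and 98.6 CPM in AllPrep, against 180, 136 and 145 CPM in TRIzol. AllPrep replicate 2 lay within the TRIzol range. The log2 fold change was -0.38 (SE 0.17, adjusted p = 0.21 in edgeR), with leave-one-out values of -0.58 to -0.25. Reln encodes reelin, a large secreted glycoprotein of layer 1, neurogliaform and some Sst cells. Reln had 112, 122 and 218 CPM in AllPrep, against 59.1, 106 and 106 CPM in TRIzol, without overlap. The high AllPrep replicate 3 and low TRIzol replicate 1 lay farthest from the other libraries of their groups. For Reln the log2 fold change was 0.74 (SE 0.31, adjusted p = 0.18 in edgeR), 0.37 without AllPrep replicate 3 and 0.51 without TRIzol replicate 1. Reln exons overlap an annotated antisense gene, Gm10475, and no source used here gives the strand setting of the counting, so reads of both cannot be told apart. Lhx6 exons overlap Gm27953, annotated on the same strand as a non-coding RNA, and its count is uncertain where reads could belong to either.

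Calb2, calretinin, a calcium-binding protein of many Vip cells, had 95.8, 45.4 and 45.8 CPM in AllPrep, against 35.5, 68.4 and 65.4 CPM in TRIzol. The groups overlapped in part, with the highest library in AllPrep and the lowest in TRIzol. The log2 fold change was 0.14 (SE 0.35, adjusted p = 0.83 in edgeR), and -0.31 without AllPrep replicate 1. Adarb2, an RNA-binding relative of the adenosine deaminases that has no shown editing activity, had 29.2, 30.1 and 30.1 CPM in AllPrep, against 16.9, 24.5 and 47.2 CPM in TRIzol. Its AllPrep libraries lay within a CV of 1.64% of each other, while the TRIzol libraries had a CV of 53.6%. For Adarb2 the log2 fold change was 0.01 (SE 0.33, adjusted p = 0.99 in edgeR), with a 95% interval of -0.62 to 0.86 in limma-voom. For Calb2 and Adarb2 the SD between TRIzol libraries was larger than the difference between the means of the methods.

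**Figure D3:**
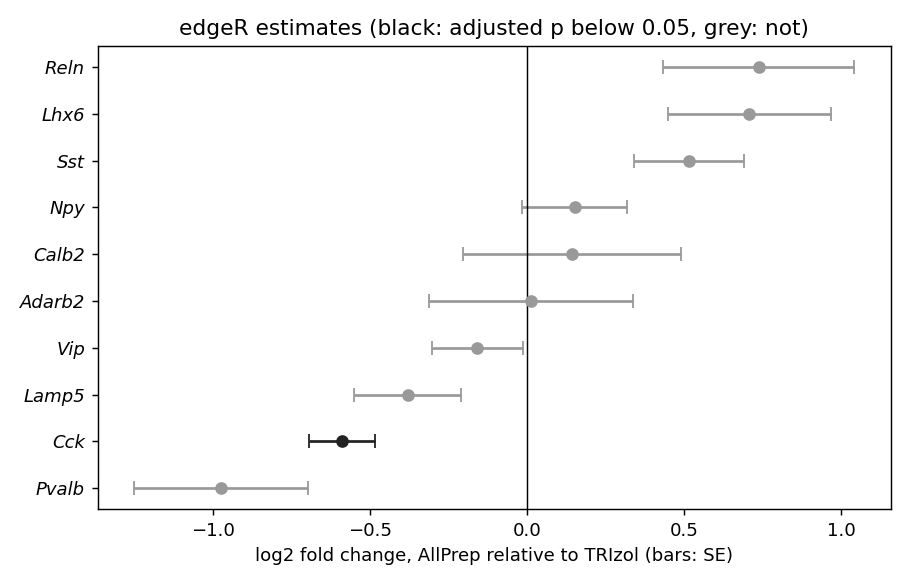
Log2 fold change of each marker, AllPrep relative to TRIzol (horizontal axis), with its SE from edgeR; black marks an adjusted p below 0.05. Cck at -0.59 is the black point, Pvalb at -0.98 is the lowest and Reln at 0.74 the highest.

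By subclass, the MGE markers had values of both signs, with Pvalb negative and Sst and Lhx6 positive. Of the CGE markers, Cck, Lamp5 and Vip had negative values. Cck and Lamp5 are also active in excitatory neurons, and Vip was at -0.0016 without AllPrep replicate 1. Calb2 and Adarb2 had values of 0.14 and 0.01 with wide errors, and both turned negative under some alternatives. Of 16 other CGE genes, 11 had positive and 5 negative values (median 0.17), where 48.5% of all tested genes were positive. Reln over Lamp5, markers of neurogliaform cells, was 1.05, 0.824 and 2.21 in counts in AllPrep, against 0.329, 0.778 and 0.732 in TRIzol. Adarb2 over Lhx6, a broad CGE gene over a broad MGE gene, was 0.804, 1.41 and 1.25 in AllPrep, against 0.755, 1.93 and 3.11 in TRIzol, which overlap.

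Levels of different genes were set side by side per kilobase of the longest annotated transcript, which ran from 566 nt for Npy to 11699 nt for Reln. Whether reads cover the transcripts evenly was not checked, and the order depends on this division. Without it, Reln was the highest marker in AllPrep (151 ± 58.2 CPM), above Sst (132 ± 30.2 CPM). In AllPrep, Sst was the highest at 184 ± 42.0 CPM per kb, followed by Cck at 122 ± 14.3 and Lamp5 at 60.4 ± 13.5 CPM per kb (SD, n = 3 each). In TRIzol, Cck came first at 183 ± 12.9, then Sst at 129 ± 19.7 and Lamp5 at 78.6 ± 11.7 CPM per kb. Sst and Cck thus stood in opposite order with the 2 methods, and the library ranges of the pair did not overlap within either method. Pvalb was the fourth in TRIzol (57.4 ± 3.32 CPM per kb), above Npy (47.7 ± 9.41) with no shared range, but stood below Npy and Calb2 in AllPrep (29.2 ± 11.5 against 52.9 ± 7.85 and 43.6 ± 20.3 CPM per kb). In AllPrep, every neighbour from Lamp5 down to Lhx6 overlapped the next in its library range. At the low end, Adarb2 had 4.43 ± 0.0727 CPM per kb in AllPrep and 4.39 ± 2.35 CPM per kb in TRIzol, and in TRIzol it overlapped Lhx6 (4.80 ± 1.44).

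Cck (799 nt, 56.9% GC), which fell, was near in length and GC to Sst (721 nt, 56.0% GC), whose value was positive without passing. Pvalb had 977 nt and 49.3% GC, and Vip the lowest GC of the markers, 38.7%. The markers with positive values included both the longest (Reln, 11699 nt) and the shortest (Npy, 566 nt) transcript. The part of transcript length and GC in the values was not tested.

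Genes shared by all inhibitory neurons had positive values without passing. Of 10 such genes, 0 passed in edgeR (5 had an unadjusted p below 0.05, DESeq2 called 2, limma-voom 0), 10 had positive values and the median log2 fold change was 0.53. Over all tested genes, 48.5% had positive values and 25.8% an unadjusted p below 0.05 in edgeR. DESeq2 called 12.2% of the genes to which it gave an adjusted p. Gad2, a GABA-synthesising enzyme, had 555, 394 and 339 CPM in AllPrep, against 257, 332 and 241 CPM in TRIzol (log2 fold change 0.63, adjusted p = 0.10 in edgeR). Gad1, the other such enzyme, had the lowest log2 fold change of the list, 0.17 (adjusted p = 0.44 in edgeR). It had 533 ± 95.1 CPM in AllPrep and 473 ± 25.9 CPM in TRIzol, with overlapping groups, and was named after its values were seen. Slc32a1, the vesicular GABA transporter, and Dlx5, a homeobox factor, had log2 fold changes of 0.44 and 1.01. The striatum, whose projection neurons are GABAergic, has many of these transcripts as well. The summed level of 9 striatal genes was 412 to 1277 CPM in AllPrep and 179 to 788 CPM in TRIzol, and its part in the values of the list was not tested.

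Of 17 other MGE genes, 3 rose, against 2.52% of all tested genes, and the other 14 missed the threshold (median log2 fold change 0.24). The 3 were Sox6, a transcription factor downstream of Lhx6, at 39.3, 36.4 and 37.8 CPM in AllPrep against 21.9, 26.01 and 23.3 CPM in TRIzol (adjusted p = 0.023 in edgeR), Elfn1, a synaptic protein of Sst cells, at 37.0 ± 2.54 CPM in AllPrep against 20.3 ± 4.23 CPM in TRIzol (log2 fold change 0.87, adjusted p = 0.033 in edgeR), and Erbb4, a neuregulin receptor of interneurons, with a log2 fold change of 0.87 (adjusted p = 0.020 in edgeR). Sox6 and Erbb4 are also expressed in cells of other kinds, Sox6 in oligodendrocyte precursors. Kcnc1, the potassium channel subunit of fast-spiking cells and the most abundant of the list, had 217 ± 18.6 CPM in AllPrep and 226 ± 43.8 CPM in TRIzol (log2 fold change -0.06, adjusted p = 0.83 in edgeR). Of 16 other CGE genes, 1 rose, against 2.52% of all tested genes, and the other 15 missed the threshold (median 0.17). It was Synpr, a synaptic vesicle protein, with 133, 139 and 137 CPM in AllPrep, against 84.3, 92.6 and 100 CPM in TRIzol (log2 fold change 0.56, adjusted p = 0.026 in edgeR). Tac2, which encodes neurokinin B, and Ndnf, a neurogliaform marker, had log2 fold changes of 1.53 and 0.71 (adjusted p = 0.053 and 0.11 in edgeR), and Cnr1, the cannabinoid receptor of Cck cells, 0.39 (adjusted p = 0.20 in edgeR).

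Among 16 receptors and signal partners of the markers' ligands, 2 rose, against 2.52% of all tested genes, and the other 14 missed the threshold (median 0.30). Sstr5, a somatostatin receptor, had 1.43, 1.27 and 1.42 CPM in AllPrep, against 0.274, 0.204 and 0.219 CPM in TRIzol (log2 fold change 2.55, adjusted p = 0.016 in edgeR), a low level in both. Vldlr, a reelin receptor, had 123 ± 4.30 CPM in AllPrep and 91.2 ± 9.77 CPM in TRIzol (log2 fold change 0.43, adjusted p = 0.048 in edgeR). Vipr1, a Vip receptor, had a log2 fold change of -0.51 (adjusted p = 0.077 in edgeR), and Adcyap1r1, the most abundant of the list and a receptor for the related peptide PACAP, 0.31 (adjusted p = 0.23 in edgeR).

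**Figure D4:**
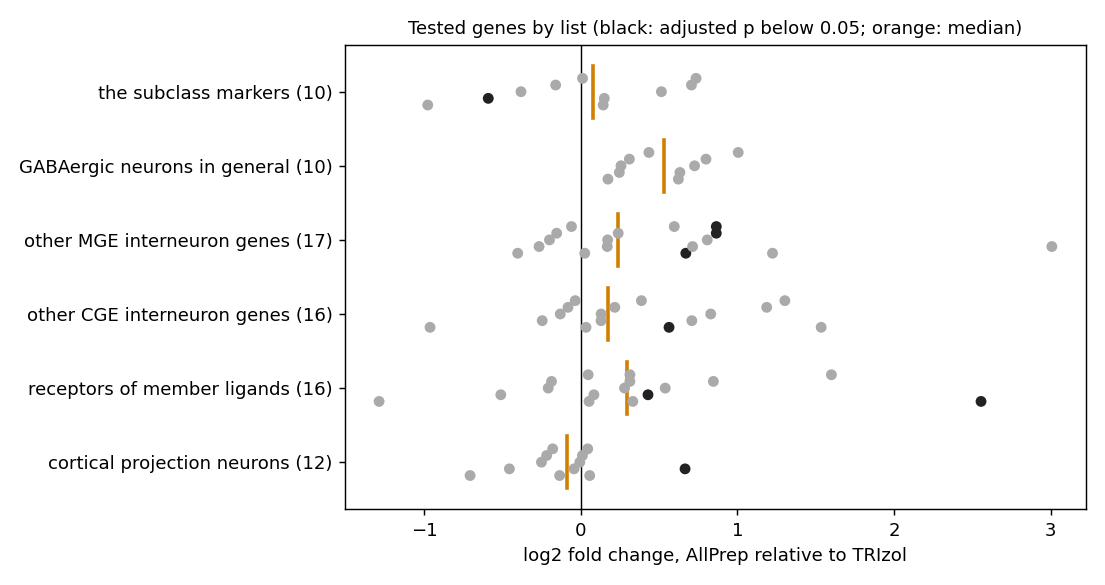
Log2 fold change of each tested gene (horizontal axis, AllPrep relative to TRIzol) in the markers and 5 gene lists; black marks an adjusted p below 0.05, the orange line the median. All 10 general GABAergic genes lie right of 0, while the markers spread to both sides around a median of 0.08.

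Region markers moved between single libraries, and their values stand here beside those of the subclass markers. Lhx6 was highest in AllPrep replicate 1, where the 7 basal forebrain and pallidum genes summed to 78.2 CPM, against 7.92 to 47.3 CPM in the other AllPrep libraries and 5.06 to 17.6 CPM in TRIzol. In that library Lhx8, a relative of Lhx6 in forebrain cholinergic cells, had 9.30 CPM, a gene named after its values were seen. Gbx1 was the gene of the list that rose (adjusted p = 0.046 in edgeR). The other AllPrep libraries had the opposite order. Replicate 2 had the higher sum (47.3 against 7.92 CPM in replicate 3) but less Lhx6 (21.3 against 24.1 CPM). Pvalb was lowest in AllPrep replicate 3. There the basal forebrain and pallidum list summed to 7.92 CPM and the striatal list to 412 CPM, the lowest of the AllPrep libraries. Both sums were lower still in TRIzol replicate 3, at 5.06 and 179 CPM, where Pvalb was higher, at 54.0 CPM. AllPrep replicate 3 also had the lowest sum of 6 oligodendrocyte genes, 3204 CPM, against 5175 and 5663 CPM in the other AllPrep libraries and 5845 to 6892 CPM in TRIzol. Adarb2 was highest in TRIzol replicate 3, the library with the high thalamic sum of 901 CPM. That library also had the highest sum of 9 hippocampal genes, 292 CPM. The hippocampal sum was 191 to 277 CPM in AllPrep, and 98.3 and 103 CPM in TRIzol replicates 1 and 2. The 8 lists of regions or glia without an edgeR call were hippocampus, striatum, olfactory bulb, thalamus, cerebellum, brainstem, oligodendrocytes and microglia. They were grouped for that reason, so that 0 of their 53 tested genes passed follows from the choice. Of the 53, 14 had an unadjusted p below 0.05 in edgeR, and DESeq2 called 4 and limma-voom 0. Of all tested genes 3.8% passed in edgeR and 25.8% had an unadjusted p below 0.05. DESeq2 called 12.2% of the genes to which it gave an adjusted p. Of the 14, 5 were among the 6 oligodendrocyte genes, which all had negative values, and each other list had 0 to 3. Of 6 astrocyte genes 1 rose, Slc1a3, a glutamate transporter (log2 fold change 0.42, adjusted p = 0.037 in edgeR), against 2.52% of all tested genes. The parts of these regions and cells in the values of the markers were not tested.

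The 9 cerebellar genes summed to 57.87 to 109.6 CPM in AllPrep and 50.17 to 120.6 CPM in TRIzol. Most of this came from genes that other regions express as well: Zic1 averaged 45.5 CPM in AllPrep and 38.9 CPM in TRIzol, Zic2 16.0 CPM in AllPrep and 9.15 CPM in TRIzol, Cbln1 12.6 CPM in AllPrep and 12.1 CPM in TRIzol, and Car8 10.77 CPM in AllPrep and 10.98 CPM in TRIzol. Pcp2, of Purkinje cells, averaged 0.150 CPM in AllPrep and 0.164 CPM in TRIzol, and Gabra6, of cerebellar granule cells, 0.0328 CPM in AllPrep and 0.0146 CPM in TRIzol. Hypothalamic genes summed to 32.0 to 53.9 CPM in AllPrep and 7.47 to 8.30 CPM in TRIzol, and 4 of 9 tested genes rose. Choroid plexus genes summed to 624 to 1246 CPM in AllPrep and 19.6 to 34.6 CPM in TRIzol, and 5 of 6 rose. Over all tested genes, 2.52% rose. Nkx2-1, in the MGE list but also a hypothalamic gene, had 2.12 ± 1.39 CPM in AllPrep and 0.264 ± 0.174 CPM in TRIzol (log2 fold change 3.01, adjusted p = 0.055 in edgeR), a gene named after its values were seen. The part of hypothalamic tissue in the values of Sst and Npy, which it also expresses, was not tested.

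**Figure D5:**
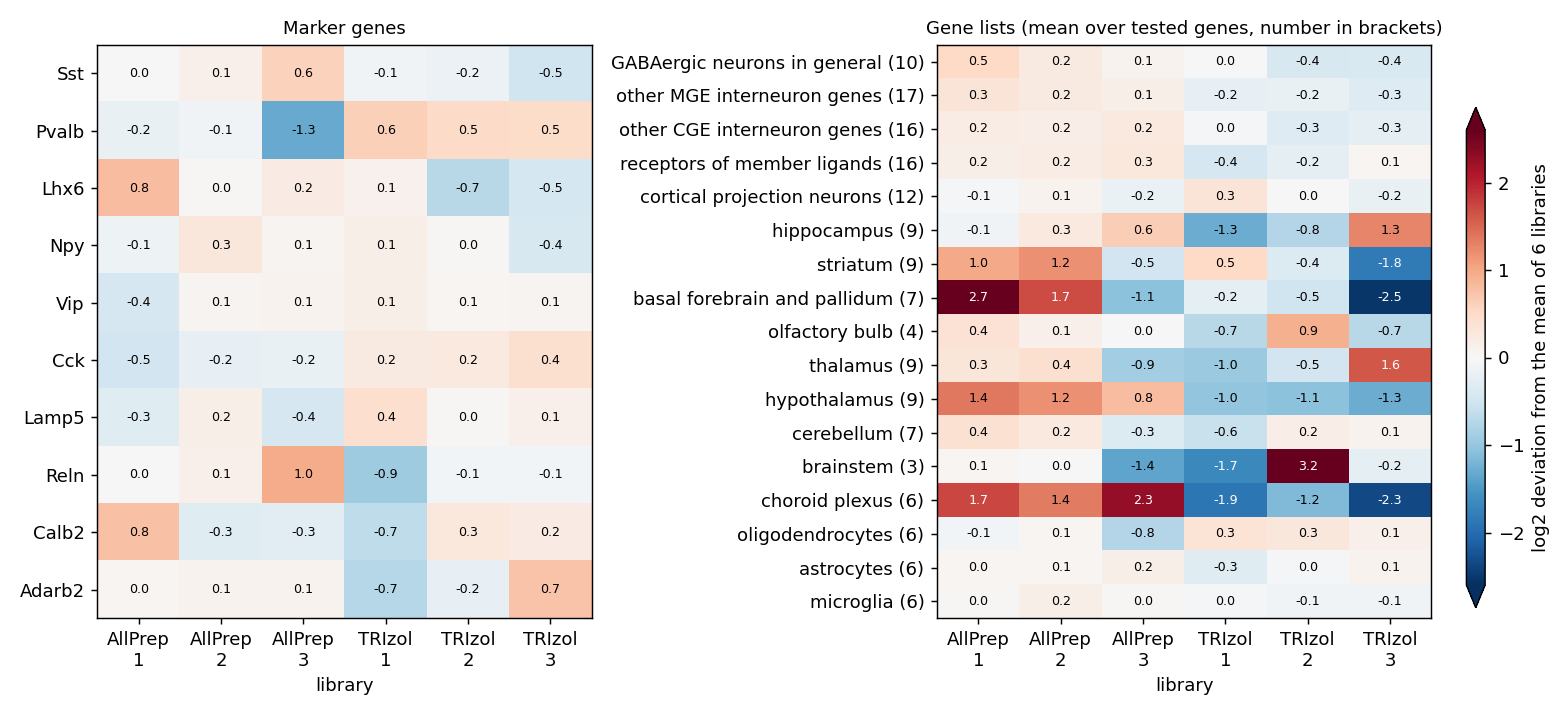
Log2 deviation of each marker (left) and mean deviation of each gene list (right) from its mean over the 6 libraries; columns are libraries and colour runs from blue (lower) to red (higher). Pvalb is at -1.3 in AllPrep replicate 3, and region lists such as basal forebrain (2.7 in AllPrep replicate 1) and brainstem (3.2 in TRIzol replicate 2) deviate further than any marker.

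Likeness over the 6 libraries was measured as the root mean square difference of centred log2 CPM, among 13610 genes with a mean of at least 1 CPM. Among the markers themselves the closest pair was Vip and Cck, with a difference of 0.23, and the farthest was Pvalb and Reln with 1.17. The nearest genes to Pvalb were Aldh3a1 (0.13), Medag (0.17) and Cpne9 (0.19). Those nearest to Sst were Spag6l (0.052), Hpcal4 (0.070) and Dscaml1 (0.083). Those nearest to Reln were Fat4 (0.14), Ndnf (0.14) and Anpep (0.16), and Ndnf is also in the CGE list. For Cck they were Tmc6 (0.058), Recql4 (0.083) and Dnph1 (0.087). With 6 libraries and so many genes, close neighbours are found for nearly any profile.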

How the data were processed

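Libraries were amplified by T7 in vitro transcription and read in pairs of 150 bases, per the labels' protocols. The values are raw, unnormalized read counts for each gene, as the authors deposited them. The submitters' processing notes name STAR 2.7.9a, featureCounts, cutadapt, FastQC 0.11.9, limma 3.60.6 and the GRCm39 build, without settings. Columns were matched to samples by name. The table had 22692 rows, and 108 extra rows of IDs listed more than once, with identical counts, were removed. Even numbers made up 64.2% to 70.9% of counts from 1 to 20, a sign that pairs may count double, so halved counts were also tried. Library pairs within a method differed beyond sampling noise (lowest chi-square over its degrees of freedom 14.3).

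The test was edgeR 4.0.16 (R 4.3.3; filterByExpr, TMM, quasi-likelihood F-test over all 6 libraries without a block); an SE is the log2 fold change divided by the square root of F. Intervals are from limma 3.58.1 (voom). Transcript length and GC came from GENCODE vM21, on a build other than that of the counts, so it gave gene properties alone, and RefSeq gave start regions. Of 173 list entries, 170 were matched; the 3 others are brainstem genes. Alternatives were DESeq2 1.42.0, other scalings and filters, halved counts, a block for the replicate number, and leaving out single libraries. The step was tested on simulated data. The markers, lists and tests were chosen with earlier results of these data known. Named were the 10 markers, in each related list the most abundant gene and the 3 of lowest p, in other lists the most abundant where a result touches them, and the nearest genes by likeness; others are named with a reason beside them. The result for 1 gene that this rule named is not reported here.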

Additional observations from a re-analysis of the deposited data

How the results depend on the processing

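Of 140 values for the 10 markers under 14 alternatives, 125 kept direction and side of the threshold and 5 reversed. Adarb2 turned to -0.025 with library size alone, -0.27 without TRIzol replicate 1 and -0.12 without TRIzol replicate 2 (range -0.27 to 0.53 over single libraries left out). Calb2 turned to -0.31 without AllPrep replicate 1 and -0.10 without TRIzol replicate 1 (range -0.31 to 0.33). Of all tested genes 621 passed, 412 higher and 209 lower in AllPrep (66.3% higher), and library size alone gave 343 and 305 (52.9%). DESeq2 gave 2001 genes (1248 higher, 753 lower) and 4 markers. Leaving out 1 library gave 2 to 205 genes (2 to 137 higher, 0 to 68 lower) and 0 markers in edgeR, where 3 to 6 markers had an unadjusted p below 0.05. With all 6 libraries 5 markers did, against 25.8% of all tested genes. That share is not given here for the smaller fits. The fewest genes, 2, passed without TRIzol replicate 2 and the most, 205, without TRIzol replicate 3.

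With a replicate block 236 genes passed (195 higher, 41 lower) and 2 markers, Cck and Lhx6 (0.71, adjusted p = 0.042 in edgeR). Same-numbered libraries correlated at -0.04, 0.01 and 0.15 in their deviations, and not every library was closest to its own number, so the numbers do not show pairs; the cause of the differences was not tested. At these depths each marker had at least 496 counts in every library, so the spread between libraries, more than counting error, limits what can be seen.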
